A study of Mus musculus with 10 samples.

Results

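Aquaporins are small membrane channels, and 10 genes of this family were followed by their mouse symbols: Aqp1, Aqp2, Aqp3, Aqp4, Aqp5, Aqp6, Aqp7, Aqp8, Aqp9 and Aqp11, out of 54532 genes in the deposited tables. Aqp4 was selected on its own counts in these libraries, because they were lower in one genotype, so its genotype values are given as a description without a test. The other 9 were listed as relatives, to see which aquaporins the newborn cochlea uses and whether any of them differed as well. The material was the soft tissue of both cochleae of a female mouse on postnatal day 1, with the thin bone removed, and each of the 10 libraries stands for 1 animal. The 5 control mice had loxP sites flanking both copies of Esrrg (Esrrgfl/fl), a nuclear receptor gene. The 5 mice labelled conditional knockout (cKO) had the same floxed alleles and in addition Sox10-Cre, a recombinase driven by regulatory sequence of Sox10, which is active in the otic epithelium, in glia and in melanocytes. The floxed alleles are therefore common to both groups. The presence of Cre and the deletion it is meant to cause cannot be told apart in this design.

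Aquaporins let water cross cell membranes along osmotic gradients. The classical members pass mainly water, the aquaglyceroporins also pass glycerol, and Aqp11 belongs to a divergent branch found mostly on internal membranes. In the inner ear, Aqp1 is known from fibrocytes and other connective tissue cells, Aqp4 from supporting cells beside the hair cells, and Aqp5 from the outer sulcus. In the brain, Aqp4 sits in the endfeet of astrocytes, held there by a protein complex around dystroglycan.

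Library totals lay between 33487089 and 41779836 counts, and 24160 to 26064 genes per library had at least 1 count. Esrrg held 1725 to 2414 counts in the control libraries and 2768 to 3632 in those labelled cKO, a log2 fold change of 0.62 (SE 0.117, edgeR adjusted p = 0.0259). A count over all exons cannot tell if one of them is missing, but its direction went against the label. The 5 libraries with Sox10-Cre are therefore named by their label, cKO, and every direction below rests on it. All 13 genes of a list of cochlear identity genes, among them Tecta of the tectorial membrane, Coch of the fibrocytes and Myo7a of the hair cells, had counts and passed the count filter. Control 2 had the fewest genes with a count and the highest sums of the erythroid, Schwann cell and oligodendrocyte markers described with the results. Without it the log2 fold changes were 0.04 for Aqp1, 0.14 for Aqp5, 0.25 for Aqp11 and -1.65 for Aqp4, against 0.05, 0.07, 0.28 and -1.61 with it.

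The newborn cochlea carried 1 aquaporin transcript at a high level, 3 at low levels and 6 near the limit of detection. Levels are compared between genes in FPKM, fragments per kilobase of gene length at a library total of 1000000, as the authors deposited them. Summed over the 10 genes, aquaporins reached 120 ± 7.74 FPKM in controls and 125 ± 10.8 FPKM with the cKO label (SD, n = 5 each). Of this sum Aqp1 took 93.3% ± 0.308 in controls, Aqp5 3.05% ± 0.447, Aqp11 2.33% ± 0.121 and Aqp4 1.00% ± 0.199, and the 6 other genes together took 0.302% ± 0.136. In the libraries labelled cKO the share of Aqp1 was 93.4% ± 0.826 and that of Aqp4 0.315% ± 0.0846.

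**Figure D1:**
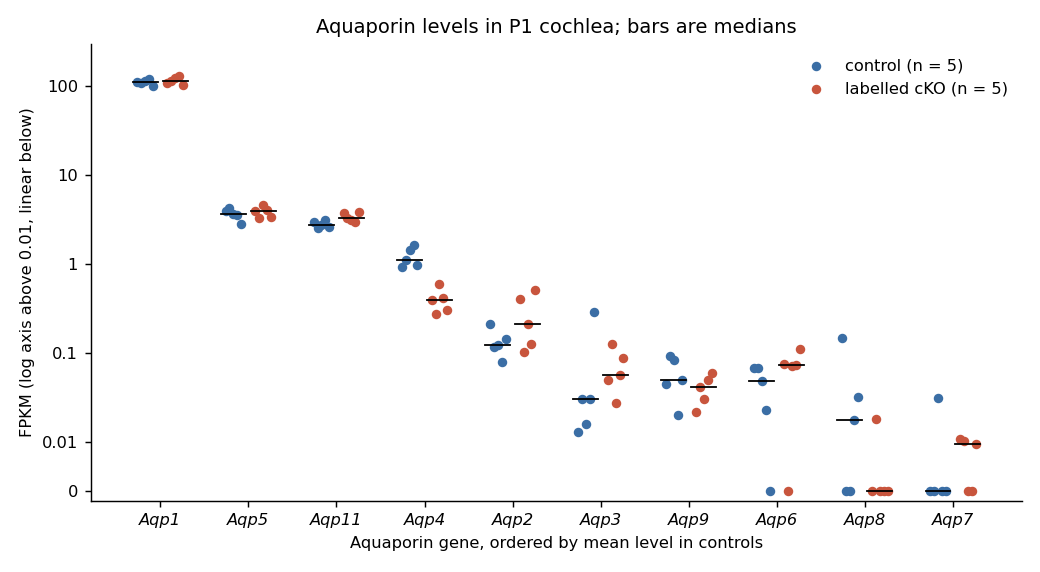
FPKM of each aquaporin in every library (1 point each, 5 per genotype label), with the median of each group as a bar, on an axis that is logarithmic above 0.01 and linear below. Aqp1 lies above 100 FPKM in all 10 libraries, Aqp5, Aqp11 and Aqp4 between 0.270 and 4.59, and the other 6 genes at 0.512 or below.

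Aqp1 is the classical water channel of red cells, endothelium and fibrocytes. Its gene (ENSMUSG00000004655) lies on GRCm38 chromosome 6, 55336432 to 55348555, plus strand, with 4 exons. Its level in control libraries 1 to 5 was 112, 109, 115, 121 and 102 FPKM. In the libraries labelled cKO, in the same order, it was 109, 115, 125, 130 and 103 FPKM. The groups overlapped, with cKO 3 and cKO 4 above every control. With a control mean of 112 ± 7.22 FPKM, Aqp1 ranked 316 among the 30633 genes with at least 1 count in the controls, within the top 1.03%. The control mean of Aqp1 was 30.6 times that of the next aquaporin, Aqp5, and their ranges were apart in both groups.

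Cells known to carry Aqp1 were also measured. The summed level of 9 erythroid genes ranged from 903 to 3730 FPKM in controls and from 563 to 1640 FPKM in the libraries labelled cKO, while Aqp1 kept within 102 to 130 FPKM. The summed level of 10 endothelial genes ranged from 141 to 172 FPKM in controls and from 154 to 160 FPKM in the libraries labelled cKO. For 7 fibrocyte genes the sums were 835 to 1020 FPKM and 972 to 1130 FPKM. No gene of these 3 lists was called between genotypes by edgeR, with 1, 1 and 2 at an unadjusted p under 0.05. Over all tested genes 9.65% passed that threshold. DESeq2 called 1 fibrocyte gene, Otos, which was lower with the cKO label (edgeR log2 fold change -0.79). The part of these cells in the level of Aqp1 was not tested.

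Aqp5 and Aqp11 came next and were close to each other. Aqp5, a water channel of secretory epithelia, had 3.96, 4.32, 3.68, 3.52 and 2.79 FPKM in controls 1 to 5. The libraries labelled cKO had 3.94, 3.32, 4.59, 4.06 and 3.41 FPKM. Control 5 held the lowest value of all 10 and cKO 3 the highest, and the groups overlapped. Aqp11, the divergent member, had 2.95, 2.57, 2.73, 3.09 and 2.60 FPKM in controls and 3.75, 3.32, 3.10, 2.97 and 3.84 FPKM in the libraries labelled cKO. The control ranges of Aqp5 and Aqp11 overlapped, although Aqp5 was the higher in 5 of 5 controls and in 3 of 5 libraries labelled cKO. The order depends on the scale: Aqp11 has the longer gene model, with 9.42 kb of merged exons against 2.60 kb, and in counts per library total of 1000000 (CPM), which ignore length, it was the more abundant, at 26.5 against 9.59 CPM in controls.

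Aqp4, the main water channel of astrocytes and of some cochlear supporting cells, was the fourth. Its mean in controls was 1.21 ± 0.305 FPKM, below every control value of Aqp11 and above every control value of Aqp2. The FPKM of Aqp4 rests on a shorter gene model than GENCODE release M21 holds: the deposited values imply 5.08 kb against 6.23 kb, while the other 9 aquaporins match that release. With the length of M21 and TMM-scaled library totals together the control mean was 0.996 on the same scale, and Aqp4 kept its place between Aqp11 and Aqp2. In the libraries labelled cKO, the level of Aqp4 exceeded that of Aqp2 in 3 of 5.

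The start regions of 3 members are shown because they set an abundant, a low and a barely counted aquaporin beside different amounts of CG. The sequences are those of RefSeq on GRCm38.p6, cut to the bases before the annotated start that lie outside all exons of GENCODE M21, with each CG dinucleotide in capitals.
Aqp1, chr6:55336049-55336298, plus strand: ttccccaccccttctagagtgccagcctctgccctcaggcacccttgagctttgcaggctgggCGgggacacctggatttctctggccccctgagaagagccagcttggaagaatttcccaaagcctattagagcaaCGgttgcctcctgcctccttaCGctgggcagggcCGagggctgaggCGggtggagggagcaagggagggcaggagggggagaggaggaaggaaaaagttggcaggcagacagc
Aqp11, chr7:97738290-97738497, minus strand: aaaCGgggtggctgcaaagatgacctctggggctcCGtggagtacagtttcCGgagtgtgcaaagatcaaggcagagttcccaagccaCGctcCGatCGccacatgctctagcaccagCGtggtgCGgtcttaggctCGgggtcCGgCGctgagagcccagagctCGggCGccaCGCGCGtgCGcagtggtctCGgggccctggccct
Aqp3, chr4:41098184-41098433, minus strand: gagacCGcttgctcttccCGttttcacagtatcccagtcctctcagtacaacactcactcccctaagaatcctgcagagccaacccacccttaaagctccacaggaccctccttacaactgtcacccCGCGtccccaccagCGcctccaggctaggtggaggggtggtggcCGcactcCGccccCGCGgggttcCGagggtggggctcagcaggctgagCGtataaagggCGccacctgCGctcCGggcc

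Over the whole RefSeq window of 300 bases around the start, Aqp1 had 8 CG dinucleotides, close to the median of 7 over all 32851 windows, although it was the most abundant member. Aqp5 had 46, more than 98.4% of windows hold, and Aqp11 had 27. Aqp3 had 21 at a control mean of 0.0758 FPKM, or 0.0222 FPKM without control 5. The letters AAGGTCA, a half-site known for estrogen-related receptors, were searched on both strands, which includes TGACCTT. They occurred in 4.72% of all windows of that length and in none of the windows found for Aqp1, Aqp2, Aqp3, Aqp5, Aqp6, Aqp7, Aqp8, Aqp9 and Aqp11. This says only that these letters are not in those windows. Aqp4 had no entry.

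Aqp5 lies between relatives that were barely counted. Aqp2, Aqp5 and Aqp6 follow one another on the plus strand of chromosome 15 within 26.4 kb, with gaps of 6.23 kb and 6.57 kb. Aqp5 (99590782 to 99594829) held 287 to 443 counts per control library. Aqp2 (99579055 to 99584547), the vasopressin-regulated channel of the kidney collecting duct, held 4 to 13 counts. Aqp6 (99601400 to 99605477), an intracellular channel of kidney cells, held 0 to 7. In each of the 10 libraries Aqp5 stood above both neighbours, and exons of the 10 aquaporins overlap those of no other gene in GENCODE M21.

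The 6 aquaporins that failed the count filter were Aqp2, Aqp3, Aqp6, Aqp7, Aqp8 and Aqp9. A count of 0 in a library still allows 3 counts, which is 0.0718 to 0.0896 CPM at these depths, for counting error only. Aqp2 had 13, 6, 6, 4 and 8 counts in controls 1 to 5 and 19, 5, 12, 7 and 27 in the libraries labelled cKO. The groups overlapped, with 37 counts in all controls together against 70. Without the filter, edgeR estimated the log2 fold change at 0.98 (SE 0.486, unadjusted p = 0.0535, adjusted p = 0.612). When single libraries were left out, Aqp2 passed the filter in 6 of 10 cases and was called in none of them.

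Among the aquaglyceroporins, Aqp3, known from the basal layers of epithelia, had 1, 2, 1, 2 and 21 counts in controls. It had 3, 8, 2, 4 and 6 counts in the libraries labelled cKO. Control 5 thus gave most of the 27 control counts. The same library held 1327 counts of Bpifa1, a secreted protein of airway epithelium, where the other 9 libraries held at most 32. The summed level of 9 genes of surface and middle ear epithelium was 26.7 FPKM in control 5, against 4.37 to 5.77 FPKM in the other controls and 3.11 to 6.14 FPKM in the libraries labelled cKO. Bpifa1 alone made up 21.7 FPKM of that sum. The other 8 genes summed to 4.93 FPKM in control 5, within the 4.37 to 5.74 FPKM of the other controls. The part of such cells in the Aqp3 count was not tested.

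Aqp9, the aquaglyceroporin of liver and neutrophils, had 3 to 14 counts in controls and 3 to 9 in the libraries labelled cKO. Neutrophil genes were present at a low level: 10 of 10 had counts, and their sum was 8.26 to 16.8 FPKM in controls and 6.32 to 15.6 FPKM in the libraries labelled cKO. Aqp7, the glycerol channel of fat cells, had 3 counts in control 3, 1 each in cKO 1, cKO 2 and cKO 5, and 0 in the other 6 libraries. Of 7 fat cell genes, Lep had 0 counts in every library, and the sum of the list was 1.18 to 2.02 FPKM over all libraries.

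Aqp6 had 0 to 7 counts in controls and 0 to 10 in the libraries labelled cKO. Aqp8, a channel of gut and salivary gland, had 10, 0, 0, 1 and 2 counts in controls, and a single count in cKO 2 was all that the other group held. In the fit without a filter its unadjusted p was 0.0378 and its adjusted p 0.612, with control 1 giving 10 of the 13 control counts. Its control mean of 0.0393 FPKM became 0.0124 FPKM without that library. That fit called none of the 6 genes, where it called 0.435% of 32869 genes, and at an unadjusted p under 0.05 it held 1 of the 6, where the share over all genes was 7.82%. Among the remaining relatives, Aqp12 had 0 counts in all 10 libraries and Mip, the lens aquaporin, had 1 to 9.

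**Figure D2:**
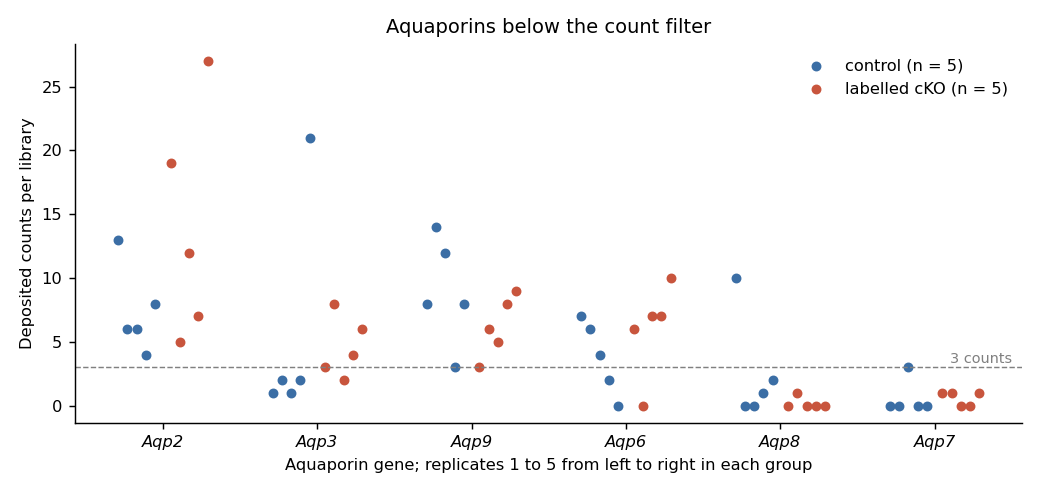
Deposited counts per library of the 6 aquaporins that failed the count filter (1 point per library, replicates 1 to 5 from left to right within each genotype label). The dashed line marks 3 counts. Aqp3 in control 5 (21 counts) and Aqp8 in control 1 (10 counts) stand apart from the other libraries of their group.

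The genotypes were then compared for the 4 aquaporins that passed the filter. Among all 17937 tested genes, edgeR called 111, or 0.619%, at an adjusted p under 0.05: 98 lower (0.546%) and 13 higher (0.0725%) with the cKO label. Aqp4 is among the lower genes, as its choice required, and nothing is read from that. Of the 3 other tested members, Aqp1, Aqp5 and Aqp11, none was called by edgeR, and none was called by DESeq2 or by limma. At an unadjusted p under 0.05 there was 1 of these 3, Aqp11, which was higher. Over all genes 9.65% passed that threshold in either direction and 4.13% as higher.

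Scaled to depth, Aqp1 averaged 296 ± 18.1 CPM in controls against 307 ± 27.9 CPM (SD, n = 5 each). The log2 fold change was 0.05 (SE 0.0813, edgeR adjusted p = 0.851), and its 95% interval reached from 0.911-fold to 1.18-fold. For Aqp5 the means were 9.59 ± 1.52 and 10.1 ± 1.34 CPM, with a log2 fold change of 0.07 (SE 0.135, edgeR adjusted p = 0.877) and an interval from 0.849-fold to 1.31-fold. These intervals bound how large a difference in either gene could be, and do not show that there was none. The sign for Aqp5 turned when control 5 was left out, to -0.0074.

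Aqp11 (ENSMUSG00000042797, chromosome 7, 97724006 to 97738289, minus strand) came nearest to a difference. It had 27.9, 24.7, 25.8, 29.2 and 24.8 CPM in controls 1 to 5. It had 35.5, 31.3, 29.3, 28.0 and 36.7 CPM in the libraries labelled cKO. Of the latter, 4 of 5 lay above every control, and cKO 4 lay within the control range. The log2 fold change was 0.28 (SE 0.0963), or 1.21-fold with a 95% interval from 1.04 to 1.42. The unadjusted p of 0.0113 became an adjusted p of 0.332 in edgeR, and over the 19 alternative fits the adjusted p ran from 0.172 to 0.699. The unadjusted p was under 0.05 in 20 of 20 fits, which share the same libraries and are not separate tests.

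**Figure D3:**
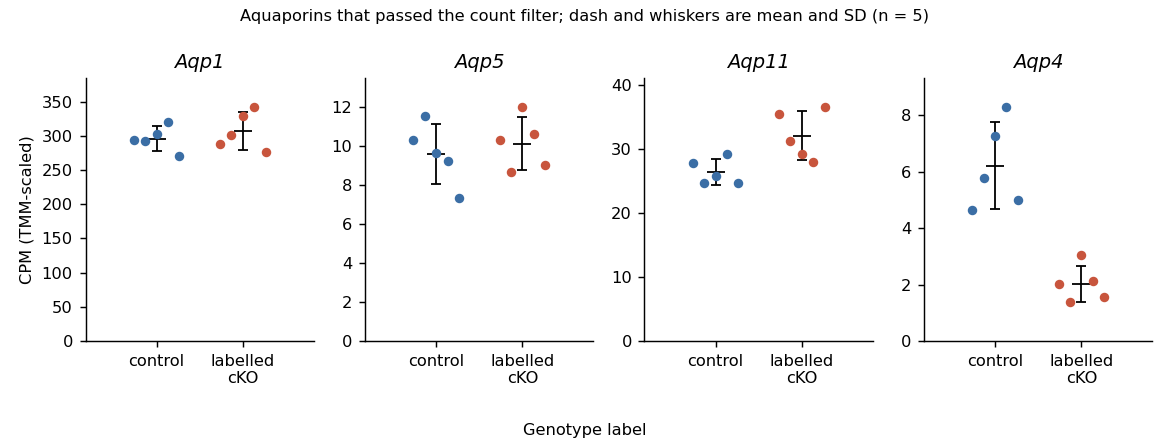
CPM of the 4 aquaporins that passed the count filter, by genotype label (1 point per library, dash and whiskers are mean and SD, n = 5, each axis starts at 0). The groups overlap for Aqp1, Aqp5 and Aqp11 and are apart for Aqp4, whose lowest control is at 4.66 CPM and whose highest library labelled cKO is at 3.03 CPM.

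Aqp4 (ENSMUSG00000024411, chromosome 18, 15389496 to 15410982, minus strand) was counted 200, 206, 250, 300 and 196 times in controls 1 to 5. It was counted 67, 48, 122, 83 and 57 times in the libraries labelled cKO. Scaled to depth, this was 4.66, 5.79, 7.25, 8.31 and 5.01 CPM against 2.01, 1.37, 3.03, 2.12 and 1.56 CPM. No library of one label reached the range of the other, as for 2.84% of all tested genes. The control mean was 6.21 ± 1.54 CPM and that of the other label 2.02 ± 0.647 CPM. Aqp4 thus stood at 32.7% of its control level (log2 fold change -1.61, SE 0.227). In a bulk library, fewer cells with Aqp4 and less Aqp4 RNA per cell cannot be told apart. With 1 library left out the log2 fold change lay between -1.81 and -1.49. On the log2(FPKM + 1) scale it was -0.66, since the added 1 is as large as the level itself. The annotation lists 11 transcripts of Aqp4, and a count per gene does not separate them.

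**Figure D4:**
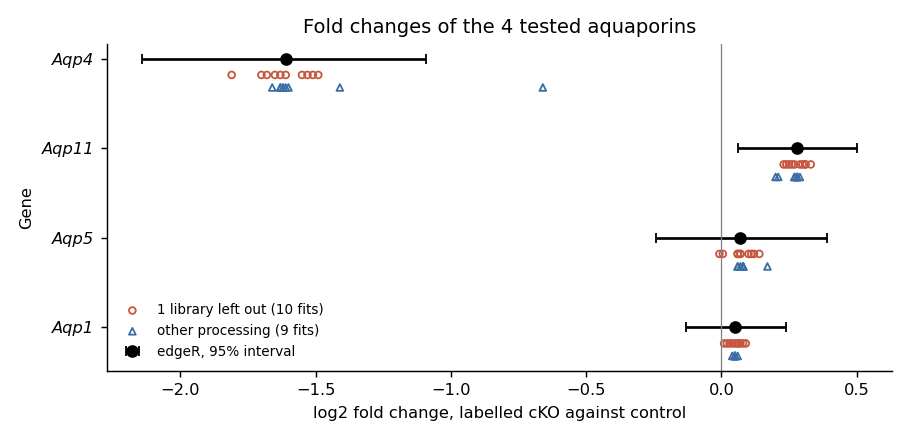
Log2 fold changes of the 4 tested aquaporins, libraries labelled cKO against controls: the edgeR estimate with its 95% interval (black), the 10 fits with 1 library left out (circles) and the 9 fits with other processing (triangles). Aqp4 stays below 0 in all fits and Aqp1 and Aqp11 above it. The fits share the same libraries, and Aqp4 was chosen for its fall, so nothing is read from these signs. Aqp5 crosses 0 in 1 fit, without control 5.

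Proteins that work with Aqp4 were examined next. A list of 15 genes of the anchoring complex and the astrocyte endfoot was tested whole. Of these, edgeR called 1 as lower and 0 as higher, where it called 0.546% and 0.0725% of all tested genes. The median log2 fold change was 0.01, where the median over all tested genes was -0.01. The gene that fell was Mlc1, a membrane protein of astrocyte endfeet whose loss in humans causes a leukoencephalopathy with swelling of myelin. It had 41, 77, 55, 51 and 50 counts in controls and 7, 13, 22, 0 and 11 in the libraries labelled cKO, with no overlap. CPM ranges did not overlap for 2.84% of all tested genes. The log2 fold change of Mlc1 was -2.35 (SE 0.488, edgeR adjusted p = 0.0456). Leaving out single libraries ended this call in 8 of 10 cases, all but those without cKO 3 and cKO 4. The adjusted p was highest without cKO 5, at 0.138, and the log2 fold changes in these fits lay between -2.75 and -2.02.

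Hepacam, the adhesion protein that carries Mlc1 to cell junctions, was added after its values were seen. It was also lower in each library labelled cKO than in any control, with 118 to 154 counts against 55 to 108. The same share of 2.84% of all tested genes applies here. The log2 fold change of Hepacam, -0.61 (SE 0.191), did not pass edgeR, with an adjusted p of 0.281, but passed limma-voom at 0.0448. The scaffold of the complex gave other values. The log2 fold change was 0.14 (SE 0.113) for Dag1, the dystroglycan gene, and 0.15 (SE 0.115) for Agrn, the matrix ligand of dystroglycan. Kcnj10, the potassium channel found beside Aqp4 in glia, had one of -0.16 (SE 0.146). Their edgeR adjusted p values lay between 0.686 and 0.736. Agrn and Dag1 had the highest levels of the list, with control means of 86.6 and 66.2 FPKM, while Mlc1 stood at 0.524 FPKM.

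Some markers of glia were also lower with the cKO label. If they varied with Aqp4 from animal to animal was not tested. Of 7 genes that define the oligodendrocyte lineage, all had counts, 4 were tested and 3 were called, all lower: Olig1, Olig2 and Gpr17. Over all tested genes edgeR called 0.546% as lower, and this list was chosen with earlier results of these data known. The 3 called genes are given next. Their log2 fold changes were -2.75 (SE 0.267), -2.04 (SE 0.310) and -2.28 (SE 0.368), with edgeR adjusted p values of 0.000246, 0.00575 and 0.00892. Olig1 and Gpr17 share exonic bases with an opposite-strand gene. The summed level of the 7 genes was 3.90 to 6.45 FPKM in controls and 0.797 to 1.90 FPKM in the libraries labelled cKO. None of these markers was at 0 over all libraries. DESeq2 and limma-voom also called Nkx2-2, for which edgeR gave -1.91 (SE 0.532) and an adjusted p of 0.184. For Mog, Opalin and Mobp, genes of mature oligodendrocytes, no library had more than 26 counts, and the count ranges of each overlapped. Their control means were 0.184, 0.0797 and 0.036 FPKM. With the cKO label they were 0.135, 0.11 and 0.0108 FPKM, so Opalin had the higher mean there.

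Of 7 genes that define astrocytes, 6 were tested, and edgeR called only Mlc1, which the endfoot list holds as well. Of these 6 genes, 5 had a log2 fold change below 0 and 3 an unadjusted p under 0.05, with a median of -0.28. Over all tested genes 51.7% lay below 0 and 9.65% had an unadjusted p under 0.05. For Acsbg1, an acyl-CoA synthetase, the log2 fold change was -0.34 (SE 0.118, edgeR adjusted p = 0.338) and for Agt, the angiotensinogen gene, -0.12 (SE 0.122, edgeR adjusted p = 0.778). Of these markers Aldh1l1 and Slc1a2 share exonic bases with other genes. Gfap, the filament protein, had a log2 fold change of -0.27 (SE 0.150), Aldh1l1 one of -0.28 (SE 0.156) and the glutamate transporter Slc1a2 one of 0.36 (SE 0.160), with edgeR adjusted p values of 0.608, 0.598 and 0.498. The sum of the 7 genes was 15.4 to 18.6 FPKM in controls and 16.1 to 19.8 FPKM in the libraries labelled cKO, with Slc1a2 giving the largest part. Without Slc1a2, the 1 tested gene of this list above 0, the sums were 8.28 to 10.7 FPKM and 6.77 to 8.24 FPKM. Slc1a2 was left out after its values were seen, so lower sums with the cKO label follow from that choice. Nothing is read from them. The sum of 13 genes of Schwann cells and satellite glia was 540 to 672 FPKM in controls and 395 to 567 FPKM in the libraries labelled cKO. Of these 13 genes 11 had a log2 fold change below 0, where 51.7% of all tested genes did. None was called by edgeR, and 6 had an unadjusted p under 0.05, where 9.65% of all tested genes did. DESeq2 and limma-voom both called Fabp7.

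Supporting and sulcus cells, where the inner ear is known to carry Aqp4, were followed by 15 genes, all of them tested. None was called by edgeR or DESeq2, and limma-voom called 1, Prox1, which was lower (edgeR log2 fold change -0.53). Of the 15 genes 8 lay above 0 and 7 below, and 3 had an unadjusted p under 0.05, where 9.65% of all tested genes did. Their sum was 625 to 738 FPKM in controls and 647 to 734 FPKM in the libraries labelled cKO. Skeletal muscle is another tissue known for Aqp4. The sum of 10 muscle genes was 2.90 to 4.12 FPKM in controls and 3.11 to 3.60 FPKM in the libraries labelled cKO, with Myod1 at 0 in every library. Of the 6 tested muscle genes edgeR called 0, with 2 at an unadjusted p under 0.05. DESeq2 called 1 (Myh8) and limma-voom 2 (Myh8 and Ttn). The edgeR log2 fold changes had opposite signs, at 1.34 for Myh8 and -0.88 for Ttn. Myh8 had 6 to 16 counts in controls and 16 to 44 in the libraries labelled cKO. The part of any of these cell types in the lower level of Aqp4 was not tested.

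**Figure D5:**
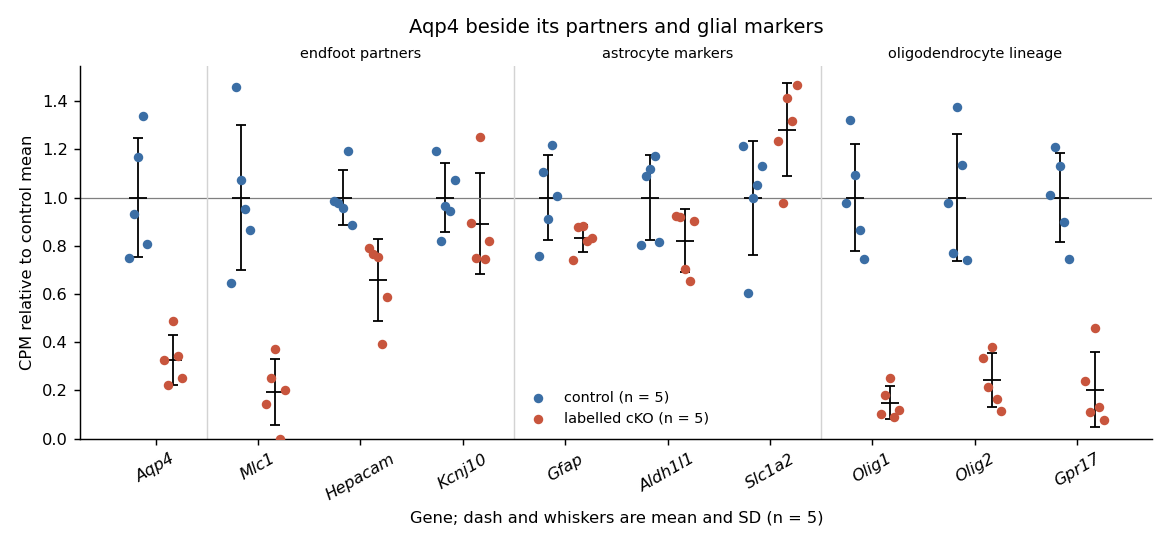
CPM of Aqp4, of 3 endfoot partners, of 3 astrocyte markers and of 3 oligodendrocyte lineage markers in every library, relative to the mean of the controls (dash and whiskers are mean and SD, n = 5). Aqp4, Mlc1, Hepacam, Olig1, Olig2 and Gpr17 show no overlap between labels, as for 2.84% of all tested genes. Kcnj10, Gfap, Aldh1l1 and Slc1a2 do overlap. Aqp4 was chosen for its fall, and Hepacam and Kcnj10 were added after their values were seen. The 3 lineage markers drawn are those that edgeR called, and Nkx2-2 of the same list, not drawn, overlaps.

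Other genes of water and osmolyte handling were described from 3 further lists. Of 18 genes of vasopressin signalling and aquaporin trafficking, 15 were tested and none was called by edgeR, DESeq2 or limma, with 0 at an unadjusted p under 0.05 and a median log2 fold change of -0.01. Avpr2, the receptor that drives Aqp2 in the kidney, had 0 to 5 counts per library, and Avpr1b had 0 in all of them. The most abundant genes of this list were Prkaca, the catalytic subunit of protein kinase A, at 68.7 FPKM in controls, and the vesicle proteins Vamp2 and Vamp3 at 37.3 and 33.1 FPKM. Their log2 fold changes were -0.04, -0.05 and -0.07.

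All 21 genes of osmotic response and cell volume were tested and none was called by edgeR or limma. Of these, 16 had a log2 fold change above 0, with a median of 0.08, and 3 had an unadjusted p under 0.05. Over all genes 51.7% lay below 0. The most abundant were Slc12a2, the chloride cotransporter of the stria vascularis, at 94.4 FPKM in controls, the taurine transporter Slc6a6 at 34.5 FPKM and the amino acid transporter Slc38a2 at 32.4 FPKM. Their log2 fold changes were 0.18, 0.34 and 0.20, with edgeR adjusted p values from 0.501 to 0.550. DESeq2 called 1 gene of the list, the kinase Wnk4 (log2 fold change 0.37), with an adjusted p of 0.0372, where edgeR gave 0.149. Slc6a6 and Wnk4 share exonic bases with an opposite-strand gene.

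The list of glycerol handling had 9 tested genes and 0 calls by edgeR, DESeq2 or limma, with 1 at an unadjusted p under 0.05, the lipase gene Pnpla2, whose log2 fold change was 0.33 (SE 0.115, edgeR adjusted p = 0.340). Its most abundant gene was Gpam, an acyltransferase that starts glycerolipid synthesis, with a log2 fold change of 0.01 (SE 0.172). Pnpla2 at 10.6 FPKM in controls and Gpd1l, a relative of the glycerol phosphate dehydrogenase gene, at 10.5 FPKM followed. Over all 60 tested genes of these lists and the endfoot list, 1 was called, or 1.67% against 0.619% over all genes, a difference of a single gene. At an unadjusted p under 0.05 there were 6 of the 60, or 10.0%, against 9.65% over all genes.

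The tested aquaporins were also compared for how they varied between animals of the same label, as log2 CPM with each label's mean removed. Over the 10 libraries, which share depth and tissue content, Pearson's r was 0.68 between Aqp1 and Aqp4, 0.53 between Aqp1 and Aqp5 and 0.51 between Aqp4 and Aqp5. Against Aqp11 it was -0.46 for Aqp1, -0.19 for Aqp4 and -0.23 for Aqp5. Spearman's rho had the same signs, at 0.66, 0.48, 0.36, -0.53, -0.35 and -0.42.

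Finally, the genes whose levels varied most like each tested aquaporin were named. The measure was the same r over the 10 libraries, and the 3 genes with the highest r among all tested genes were taken. They are extremes of a search through all genes and are given without a test. For Aqp4 they were Plekhb2 (r = 0.94, rho = 0.93), Gm9968 (r = 0.91, rho = 0.95) and Brip1os (r = 0.90, rho = 0.93), and without the 2 libraries farthest from its median, cKO 3 and cKO 2, the values of r were 0.88, 0.86 and 0.81. For Aqp1 they were Gm29683, Ccr10 and Gm35147, each with r = 0.94. Gm9968 and Gm35147 were low, with means of 0.318 and 0.714 CPM over the 10 libraries. For Aqp5 they were Mypop, Chtf8 and Rrp7a, with r from 0.94 to 0.95. For Aqp11 they were 1700025G04Rik, Clstn1 and Slc27a1, with r from 0.94 to 0.95. Gm9968, Brip1os, Mypop, Chtf8, Rrp7a and 1700025G04Rik share exonic bases with an opposite-strand gene. No gene was named for more than 1 aquaporin, and edgeR called none of the 12 between genotypes.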

How the data were processed

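RNA of the cochlea was sequenced from 10 libraries, 5 per genotype label, after enrichment of polyadenylated RNA, as paired reads of 150 bp, per the labels' protocols. Of the 2 tables the authors deposited, one holds whole-number counts and the other FPKM, each by Ensembl gene ID. The submitters' processing notes name STAR 2.5, HTSeq 0.61, DESeq2 2 and the build mm10, with no roles. Annotation release and strand setting are not given in the sources used here. The deposited FPKM implied gene lengths within 0.5% of GENCODE M21 for 95.5% of 13923 genes with at least 50 counts per library, so symbols and positions were taken from that release (GRCm38), which held 54495 of 54532 IDs.

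Genes were kept by edgeR's filterByExpr (minimum 10 counts), which left 17937 genes with at least 99.91% of the counts of each library. Counts were scaled by TMM, and the labels compared with edgeR 4.0.16 (quasi-likelihood F-test, robust, genotype alone), with Benjamini-Hochberg adjustment over all tested genes and a threshold of 0.05. SEs come from the F statistic, and 95% intervals use them with 8 degrees of freedom. The fit was tested on simulated counts. P-values set the difference between labels against the spread between animals.

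The alternatives were DESeq2 1.42.0 and limma 3.58.1 (voom with quality weights, and log2(FPKM + 1) or log2(FPKM + 0.1)), DESeq2 size factors, upper-quartile factors, no count filter, at least 1 CPM in 5 libraries, the replicate number as a block, and each library left out in turn. The members, the gene lists and the tests were chosen with earlier results of these data known. Of the lists, those named in the report are given there. One erythroid gene of the list, Ahsp, and the amino acid sequences were not used here. The sums of the other lists are in the closing section. Named genes are the members, the called genes and the 3 most abundant of each pathway list, the defining markers, and the 3 genes most like each tested member, and some genes that fall under this rule are not reported here. Kcnj10, Hepacam, Wnk4, Avpr1b, Avpr2, Bpifa1 and the marker genes called by DESeq2 or limma alone were added after their values were seen.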

Additional observations from a re-analysis of the deposited data

Results flagged for a closer look

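Dixon's test was applied to each aquaporin within each label, to find a library far from the other 4. Of 20 groups, 4 had such a library. The cut-off is set for 5% of groups of normally distributed values. It gives no chance share for counts near 0, so the 4 are only listed. All 4 concern genes below the count filter. Aqp3 was high in control 5 (0.537 CPM, others 0.0233 to 0.0562), the library with the high Bpifa1 count. Aqp8 was high in control 1 (0.233 CPM, others at most 0.0512), which rests on 10 counts. Aqp7 in control 3 (0.087 CPM) and Aqp8 in cKO 2 (0.0286 CPM) stood apart only because the other libraries of their group had 0, and they rest on 3 counts and 1 count.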

How the results depend on the processing

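Aquaporins other than Aqp4 gave 0 calls in each of the 19 alternative fits, the replicate block and the fit without a filter included. Log2 fold changes kept their sign for Aqp1, Aqp4 and Aqp11 in all 19. The fits share the same libraries, so a kept sign is no separate support, and for Aqp4 it follows from its choice. The log2 fold change of Aqp5 ran from -0.0074 without control 5 to 0.17 with limma-voom. Its highest value with 1 library left out was 0.14, without control 2. The number of lower genes over the whole table, 98, became 253 with DESeq2, 362 with limma-voom and 44 to 178 with 1 library left out. The lowest count, 44, came without control 3, and the highest, 178, without control 2. The number of higher genes, 13, became 54 with DESeq2, 74 with limma-voom and 8 to 19 with 1 library left out, and the cause was not tested. Of the pathway genes, 1 was called, and 2 with DESeq2 and 2 with limma-voom, 0 at 1 CPM in 5 libraries, where Mlc1 was not tested, and 0 to 1 with 1 library left out.

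The deviations of libraries with the same number in both labels over the 500 most variable genes correlated by 0.06 to 0.20. They were above 0.1 in 3 of 5 pairs, and 5 of 10 libraries correlated best with their own number. Between different numbers r ran from -0.32 to 0.28. These values do not settle if the numbers pair the animals, and the main fit holds genotype alone. With the replicate block 83 genes were lower and 18 higher, 1 pathway gene was called and Aqp4 had a log2 fold change of -1.63. Depth limits the 6 genes with at most 27 counts in any library, and 1 library decided the control counts of Aqp3 and Aqp8.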

Other observations

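Marginal cells of the stria vascularis, which secrete potassium into the endolymph, were followed by 8 genes. All 8 had a log2 fold change above 0, with a median of 0.22. None was called by edgeR, DESeq2 or limma, and 2 had an unadjusted p under 0.05. Over all genes 51.7% lay below 0, and 9.65% had an unadjusted p under 0.05. Genes of 1 cell type can vary together with tissue content, so the 8 are not separate results. Their sum was 105 to 149 FPKM in controls and 136 to 155 FPKM in the libraries labelled cKO. The sum of the 13 cochlear identity genes was 571 to 693 FPKM in controls and 697 to 740 FPKM in the libraries labelled cKO. Those ranges nearly touched, at 693 and 697 FPKM, and the sum was not tested. For single genes, CPM ranges did not overlap in 2.84% of all tested genes. Gjb2, Tecta and Coch gave the largest parts of the sum, with control means of 201, 174 and 125 FPKM. Of the 13 genes, 10 had a log2 fold change above 0 and 3 below. None was called by edgeR or limma, with 3 at an unadjusted p under 0.05. DESeq2 called 1, Otos, which was lower with the cKO label (edgeR log2 fold change -0.79). The wider list of 14 astrocyte genes, several of which the cochlea uses itself, summed to 461 to 652 FPKM in controls and 500 to 590 FPKM in the libraries labelled cKO. The wider list of 15 oligodendrocyte lineage genes, which holds genes shared with Schwann cells and mesenchyme, summed to 310 to 364 and 337 to 397 FPKM.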
